A study of Mus musculus with 88 samples.

Results

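Kdm6a, Kdm6b, Kmt2a, Kmt2b, Kmt2c and Kmt2d were followed through the exit of mouse embryonic stem cells (ESCs) from pluripotency, with and without subunits of Polycomb Repressive Complex 2 (PRC2). These 6 genes were listed by name and were found by symbol in each table. They were 6 of 53697 genes of the mesoderm table, 6 of 54393 of the endoderm table, 6 of 26007 of the bulk embryoid body (EB) table and 6 of 15830 of the single-cell table, which together cover 88 samples. Every directed library carried the label E14, and was either WT, Mtf2 null (a gene trap on both alleles) or Jarid2 null (both alleles disrupted). The stem cells were maintained in serum and LIF. The study names Pcl1-3 WT and JM8 as the background-matched WT lines of the Mtf2 null and Jarid2 null cells. Where the WT cells of the directed libraries, or of the single cells below, were of another background, it cannot be told apart from genotype. Undifferentiated cells were compared with cells at 5, 24 and 48 h of differentiation as monolayers. For the first 24 h the medium held Activin A, BMP4, CHIR99021 and FGF2 (the mesoderm series) or Activin A, CHIR99021 and FGF2 (the endoderm series). After that it held A-83-01 with BMP4 for lateral mesoderm, or Activin A with DM3189 for definitive endoderm. There were 2 libraries per genotype and time, or 24 in each series. The authors call these pairs technical replicates, so p-values measure the spread between technical libraries. The EBs, free-floating aggregates in which stem cells differentiate without added lineage factors, came from 6 lines. Those labelled Mtf2 null, Jarid2 null and Eed null were matched with the WT lines Pcl1-3 WT, JM8 and J1, with 1 sample per line on each of days 0, 2, 4 and 7. The column names of every day 0 sample read mono, for monolayer, and those of later days eb. Comparisons with day 0 therefore cannot tell culture form from time. The single cells, 4949 sorted live cells under the strain label E14 in 16 libraries, were WT, Mtf2 null, Jarid2 null or Eed null EB cells of days 0, 4, 7 and 10, with 1 library per genotype and day.

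PRC2 places methyl groups on lysine 27 of histone H3 (H3K27), a mark of repressed genes; MTF2 and JARID2 belong to alternative forms of the complex, and EED to its core. Kdm6a (UTX) and Kdm6b (JMJD3) encode the enzymes that remove that mark. Kmt2a (MLL1), Kmt2b (MLL2), Kmt2c (MLL3) and Kmt2d (MLL4) encode methyltransferases of lysine 4 of the same histone (H3K4), a mark of active promoters and enhancers. KMT2A and KMT2B act mainly at promoters and carry a domain that binds unmethylated CpG, whereas KMT2C and KMT2D place single methyl groups at enhancers in a complex that also holds KDM6A. Promoters of developmental genes in ESCs often carry both marks at once, which is why these opposing enzymes are read side by side here.

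In GRCm38, the build of the files, Kdm6a (ENSMUSG00000037369) lies at chrX:18162575-18279936 on the plus strand. The others are on the minus strand: Kdm6b (ENSMUSG00000018476) at chr11:69398508-69413675, Kmt2a (ENSMUSG00000002028) at chr9:44803355-44881296, Kmt2b (ENSMUSG00000006307) at chr7:30568858-30588726, Kmt2c (ENSMUSG00000038056) at chr5:25271798-25498783 and Kmt2d (ENSMUSG00000048154) at chr15:98831669-98871204. Their longest coding transcripts measure 5935, 6654, 16470, 8469, 14967 and 19823 bases in the order just used, from Kdm6a to Kmt2d. Kdm6b lies opposite Kdm6bos, and Kmt2a and Kmt2c overlap annotated genes on either strand (Gm48314 and AC061963.1 for Kmt2a, Gm20432, Gm42585, Hspe1-ps3 and Gm18343 for Kmt2c); whether counting used strand is not given in the sources used here. Kdm6a has a close paralogue on the Y chromosome, Uty. The estimated Kdm6a count was whole, within 0.001, in 6 of 24 mesoderm and 1 of 24 endoderm libraries, and fractional in the others. Fractional counts were not particular to Kdm6a: Kmt2d was whole in 8 and 6 of 24 libraries, Kdm6b in 15 and 16, and Kmt2b in 21 and 21. The Kdm6a level is uncertain where reads could be split with Uty.

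PRC2 with MTF2 is recruited to CpG-rich DNA, so the promoters of the members are shown with the triplet GCG in capitals, read on either strand (GCG or CGC). The runs are upstream sequence from RefSeq on GRCm38.p6, 5′ to 3′ on the gene's own strand, each ending next to its start site; the table held 4 of the 6 members. The windows are chrX:18162325-18162574 (plus strand), chr9:44881297-44881539, chr5:25498784-25499033 and chr15:98871206-98871455 (minus strand).
Kdm6a promoter: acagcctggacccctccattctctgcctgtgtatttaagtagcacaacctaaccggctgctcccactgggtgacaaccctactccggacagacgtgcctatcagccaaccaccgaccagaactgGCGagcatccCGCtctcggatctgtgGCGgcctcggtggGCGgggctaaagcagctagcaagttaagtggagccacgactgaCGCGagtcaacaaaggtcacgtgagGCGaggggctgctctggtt
Kmt2a promoter: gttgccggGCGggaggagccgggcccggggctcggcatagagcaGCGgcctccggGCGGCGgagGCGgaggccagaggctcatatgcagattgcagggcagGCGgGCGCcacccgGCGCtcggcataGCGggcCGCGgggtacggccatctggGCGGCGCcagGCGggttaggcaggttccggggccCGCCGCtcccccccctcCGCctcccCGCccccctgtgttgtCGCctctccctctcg
Kmt2c promoter: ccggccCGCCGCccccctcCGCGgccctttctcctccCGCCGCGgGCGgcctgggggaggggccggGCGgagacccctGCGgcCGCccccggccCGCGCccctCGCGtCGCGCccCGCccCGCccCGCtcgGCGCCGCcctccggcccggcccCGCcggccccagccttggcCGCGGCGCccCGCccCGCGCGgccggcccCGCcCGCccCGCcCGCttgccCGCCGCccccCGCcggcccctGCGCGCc
Kmt2d promoter: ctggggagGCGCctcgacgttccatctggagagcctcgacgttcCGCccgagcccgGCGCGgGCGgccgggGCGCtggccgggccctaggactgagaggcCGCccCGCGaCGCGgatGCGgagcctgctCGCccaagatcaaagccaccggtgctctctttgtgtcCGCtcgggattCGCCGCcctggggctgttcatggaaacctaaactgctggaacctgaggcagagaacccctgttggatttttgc
The Kmt2c window held 46 of these triplets, more than 99.6% of the 32817 windows of the same kind, beside 22 in Kmt2a, 19 in Kmt2d and 7 in Kdm6a. Over all windows the median was 3, and 76.6% held at least 1. The dinucleotide CG was found 48 times in Kmt2c, 29 in Kmt2a, 26 in Kmt2d and 15 in Kdm6a, against a median of 6 and a share of 92.1% with any; it overlaps each triplet. GC content was 91.6% in Kmt2c, 77.4% in Kmt2a, 67.6% in Kmt2d and 59.6% in Kdm6a. The E-box CACGTG, present in 6.02% of windows, was found once here, in Kdm6a, and CCGCCC on either strand, present in 32.7%, was found 12 times in Kmt2c, 4 times in Kmt2a and in Kmt2d, and once in Kdm6a. These letters are a description of the windows; no binding was measured.

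Directed libraries held 9112116 to 16898498 estimated counts in the mesoderm series and 9889871 to 16373027 in the endoderm series, and each member had at least 497.6 counts in every library. Mtf2 was at 30.2 to 38.2 CPM (counts scaled to a library of 1000000) in Mtf2 null libraries and at 206 to 509 in WT. Jarid2 was not lower in the libraries labelled Jarid2 null at 48 h (347 to 448 CPM, against 307 to 407 in WT), and gene-level counts cannot show a deleted part, so the label is carried as given. Undifferentiated libraries with the same replicate number were closer to each other across the 2 series (a median difference of 1.91 to 2.66 times counting noise) than the 2 replicates within a series were (2.84 to 4.76 times). The labels do not say whether the series share those samples. The extraembryonic endoderm markers Sox7, Dab2, Lama1, Lamb1 and Col4a1 summed to 1452 to 1997 CPM in undifferentiated Mtf2 null libraries against 308 to 369 in WT, and to 3171 to 4729 against 178 to 287 at 48 h. All 5 of 5 rose at every time in both series. The naive pluripotency markers summed to 2295 to 2562 CPM in undifferentiated Mtf2 null libraries against 1457 to 1800 in WT. Of the endoderm markers, WT libraries of the endoderm series at 48 h summed to 6.88 to 9.79 CPM, against 8.53 to 9.85 undifferentiated, with Cer1 at 0 and Cxcr4, Foxa2 and Sox17 under 1 CPM. These cells did not carry the defining markers of endoderm. Lateral mesoderm markers summed to 6.27 to 9.05 CPM in WT at 48 h of the mesoderm series, against 2.56 to 3.35 undifferentiated. In bulk samples, fewer cells of a type and less RNA per cell cannot be told apart.

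Per kilobase of transcript, the only scale on which genes are compared here, undifferentiated WT cells of the mesoderm series had 10.4 ± 2.2 CPM per kb of Kmt2b (SD, n = 2), 10.2 ± 2.0 of Kmt2d and 9.84 ± 2.4 of Kdm6b. Kdm6a followed at 8.22 ± 1.0, Kmt2c at 8.15 ± 0.79 and Kmt2a at 6.79 ± 0.36 CPM per kb. Neighbours in that order did not differ beyond their spread, except that Kmt2a lay below Kmt2c. At 24 h the order opened up: Kmt2b (17.7 ± 1.6 CPM per kb) and Kmt2d (17.3 ± 1.5) stood above Kdm6b (10.9 ± 0.32), Kmt2a (10.8 ± 1.0) and Kdm6a (9.87 ± 0.17), with Kmt2c lowest at 6.18 ± 0.32. In WT of the endoderm series at 48 h the demethylases came first, with 16.3 ± 3.7 CPM per kb of Kdm6b and 15.9 ± 1.0 of Kdm6a, and Kmt2c was again lowest at 8.57 ± 0.17. Across the 12 groups of a series no member moved more than 3.08-fold between its lowest and highest mean, the value of Kmt2c in the mesoderm series, and the median ratio between the 2 libraries of a group was 1.04 to 1.17 for each member. The widest pair was that of Kdm6b in WT at 48 h of the mesoderm series, 2.01-fold apart.

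**Figure D1:**
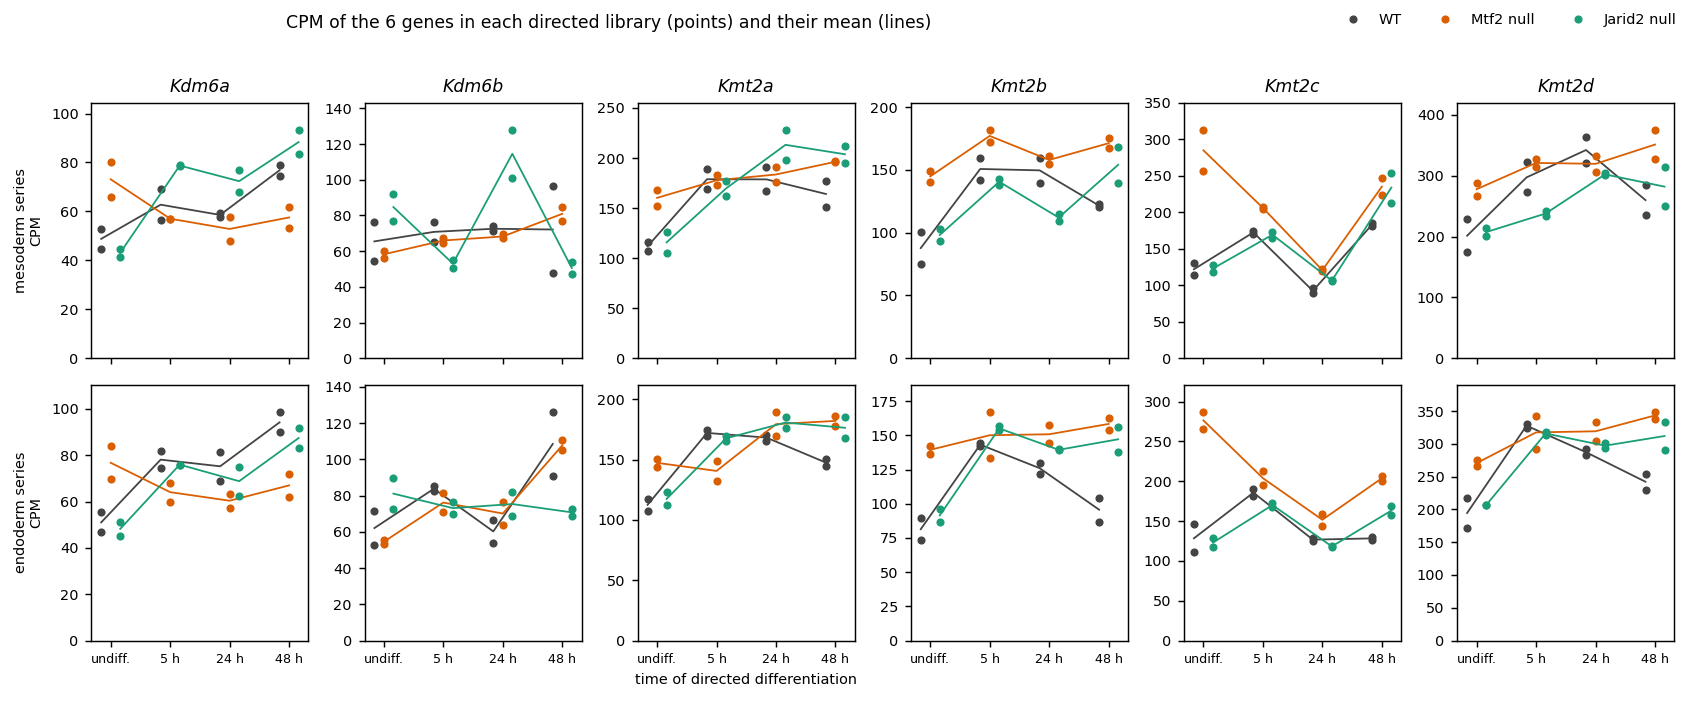
Each panel is 1 member in 1 series, with time on the x axis and CPM on the y axis; points are single libraries (2 per group), lines join group means, and colours mark WT, Mtf2 null and Jarid2 null. The 2 Mtf2 null points of Kmt2c in undifferentiated cells (313 and 257 CPM in the mesoderm series) stand apart from the WT points (130 and 114), and Kdm6a crosses over, with Mtf2 null above WT before differentiation and below it at 48 h.

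What does loss of MTF2 do to these enzymes before differentiation starts? Of the 6 members, 5 were higher and none lower in undifferentiated Mtf2 null cells in each series. Over all genes, 39.2% of 18361 genes tested in the mesoderm series and 40.6% of 19261 in the endoderm series passed the test in either direction (edgeR quasi-likelihood test, adjusted p under 0.05). Kmt2c, the enhancer methyltransferase, moved most. Its libraries read 313 and 257 CPM in Mtf2 null and 130 and 114 in WT of the mesoderm series, and 287 and 266 against 146 and 111 in the endoderm series. No Mtf2 null library overlapped a WT library. The log2 differences were 1.22 (SE 0.11, adjusted p = 4.7e-08) and 1.11 (SE 0.11, adjusted p = 6e-08), the only ones among the members past the study's stricter limits of adjusted p 0.001 and log2 difference 1 in this comparison.

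The H3K27 demethylases parted from each other in the same cells. Kdm6a libraries read 80.3 and 65.9 CPM in Mtf2 null against 53 and 44.6 in WT of the mesoderm series, and 83.8 and 69.6 against 55.3 and 46.7 in the endoderm series. The groups did not overlap, and the log2 difference was 0.59 in both series (SE 0.13, adjusted p = 0.0011 in each). Kdm6b, the inducible demethylase, read 56.2 and 60.2 CPM against 76.6 and 54.4 in WT of the mesoderm series, with a log2 difference of −0.17 (SE 0.22, adjusted p = 0.58). Its value in the endoderm series was −0.19 (SE 0.16, adjusted p = 0.39), so Kdm6b was the member that did not pass in either series.

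The promoter methyltransferase Kmt2b read 141 and 149 CPM in Mtf2 null against 101 and 74.8 in WT of the mesoderm series, and 136 and 143 against 89.7 and 73.2 in the endoderm series. It was higher without overlap in both, with log2 differences of 0.72 (SE 0.13, adjusted p = 0.00011) and 0.78 (SE 0.12, adjusted p = 2.6e-05). Kmt2a, the founding MLL gene, rose by 0.52 (SE 0.12, adjusted p = 0.0017) and 0.39 (SE 0.10, adjusted p = 0.0024), and Kmt2d by 0.46 (SE 0.14, adjusted p = 0.013) and 0.48 (SE 0.11, adjusted p = 0.0017). The Kmt2d call in the mesoderm series was lost without Mtf2 null replicate 1 (log2 0.41, adjusted p = 0.089) or WT replicate 2 (log2 0.28, adjusted p = 0.19), the lowest of the WT libraries at 174 CPM. With the undifferentiated libraries of both series in 1 fit, 4 against 4, again 5 of 6 members were higher, in a comparison in which 54.5% of genes passed. The log2 differences were 1.18 for Kmt2c (SE 0.09), 0.76 for Kmt2b (SE 0.08), 0.60 for Kdm6a (SE 0.09), 0.48 for Kmt2d (SE 0.09) and 0.46 for Kmt2a (SE 0.08). Kdm6b stood at −0.17 (SE 0.11, adjusted p = 0.20), and passed as lower only without WT replicate 2 of the mesoderm series (log2 −0.31, adjusted p = 0.019). Adding up the same-numbered libraries of the 2 series, a step chosen after seeing how alike they were, left 5 of 6 called. The 870 and 889 genes with transcripts of at least 8 kb, a limit also chosen after seeing the data and met by each of the 4 MLL genes, had a median log2 difference of 0.26 in the mesoderm and 0.14 in the endoderm series, against −0.02 and −0.05 over all genes. Of these genes 37.9% and 34.3% were called higher. The part of transcript length in the members' change was not tested. Nor was that of the extraembryonic endoderm and naive pluripotency markers, which were also higher in these libraries.

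At 5 and 24 h few members differed. At 5 h in Mtf2 null cells no member passed in the mesoderm series by edgeR or DESeq2 (1 at an unadjusted p under 0.05), where 28.7% of genes did, and 1 of 6 in the endoderm series, where 31% did. That gene was Kmt2a, at 149 and 133 CPM in Mtf2 null against 175 and 170 in WT (log2 −0.29, SE 0.09, adjusted p = 0.022). The call was lost without Mtf2 null replicate 2 (−0.21, adjusted p = 0.23), WT replicate 1 (−0.27, adjusted p = 0.13) or WT replicate 2 (−0.29, adjusted p = 0.08). At 24 h Kmt2c alone was higher in the mesoderm series, at 119 and 123 CPM against 89.0 and 95.8 (log2 0.39, SE 0.11, adjusted p = 0.017; 22.8% of genes passed). No member passed in the endoderm series by edgeR or DESeq2 (3 at an unadjusted p under 0.05; 26.2% of genes). That Kmt2c call was lost without any 1 of its 4 libraries (log2 0.33 to 0.44, adjusted p = 0.056 to 0.15). Kdm6a at 24 h of the endoderm series passed as lower only without WT replicate 1 (log2 −0.44, adjusted p = 0.039).

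At 48 h the Mtf2 null pattern had turned for Kdm6a. Its libraries read 53.4 and 61.7 CPM in Mtf2 null against 79.2 and 74.5 in WT of the mesoderm series, and 61.9 and 72 against 89.8 and 98.5 in the endoderm series. Mtf2 null was now the lower genotype, by −0.42 (SE 0.13, adjusted p = 0.018) and −0.49 (SE 0.13, adjusted p = 0.0043) on the log2 scale, in comparisons in which 27.9% and 38% of genes passed. The call was lost in the mesoderm series without replicate 1 of Mtf2 null (−0.32, adjusted p = 0.19) or of WT (−0.37, adjusted p = 0.11). It was lost in the endoderm series without Mtf2 null replicate 1 (−0.39, adjusted p = 0.078) or WT replicate 2 (−0.43, adjusted p = 0.0505). The change of the Mtf2 null effect from undifferentiated cells to 48 h, tested as an interaction, was −1.003 (SE 0.18, adjusted p = 0.00075) and −1.08 (SE 0.18, adjusted p = 0.00021) for Kdm6a. It was past the study's stricter limits in both series and called in every fit that left out 1 library.

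Kmt2b, Kmt2c and Kmt2d were higher in Mtf2 null cells at 48 h in both series. Kmt2b read 167 and 175 CPM against 120 and 123 in the mesoderm series (log2 0.50, SE 0.12, adjusted p = 0.005) and 154 and 163 against 105 and 86.8 in the endoderm series (log2 0.73, SE 0.12, adjusted p = 5.3e-05), without overlap. Kmt2d was higher by 0.43 (SE 0.14, adjusted p = 0.025) and 0.50 (SE 0.11, adjusted p = 0.001), and Kmt2c by 0.36 (SE 0.11, adjusted p = 0.021) and 0.67 (SE 0.11, adjusted p = 4.4e-05). Kmt2a passed in the endoderm series only (0.30, SE 0.09, adjusted p = 0.014; mesoderm 0.26, SE 0.12, adjusted p = 0.11), a contrast between series that was not itself tested. Without Mtf2 null replicate 2 the mesoderm calls of Kmt2c (0.29, adjusted p = 0.16) and Kmt2d (0.34, adjusted p = 0.20) were lost. Without WT replicate 1 they were lost too (0.37 and 0.31, adjusted p = 0.075 and 0.24), and that of Kmt2c also without WT replicate 2 (0.34, adjusted p = 0.093). The Kmt2a call in the endoderm series was lost without replicate 1 of Mtf2 null (0.27, adjusted p = 0.095) or of WT (0.27, adjusted p = 0.081). As an interaction with time, the Mtf2 null excess of Kmt2c changed by −0.87 (SE 0.16, adjusted p = 0.00081) in the mesoderm series and by −0.44 (SE 0.15, adjusted p = 0.044) in the endoderm series. Kdm6a and Kmt2c were the 2 of 6 members called in each, beside 18.1% and 22.0% of genes. Transcripts of at least 8 kb, Kmt2c among them, had a median interaction of −0.26 and −0.15, against 0.003 and 0.03 over all genes. Of these long transcripts 23.6% and 21.7% were called lower and 6.32% and 9.56% higher. The part of length in the change of Kmt2c was not tested. The endoderm call of Kmt2c was lost on leaving out 6 of its 8 libraries in turn, all but replicate 1 of WT at either time (adjusted p = 0.053 to 0.22), with the smallest value without the undifferentiated WT replicate 2 (−0.25). Kdm6b showed no Mtf2 null difference past the test at any time, with 47.8 and 96.4 CPM in the 2 WT libraries of the mesoderm series at 48 h around 84.9 and 76.9 in Mtf2 null. Leaving out WT replicate 2 gave a difference of 0.75 (adjusted p = 0.0051) and an interaction of 0.92 (adjusted p = 0.013).

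**Figure D2:**
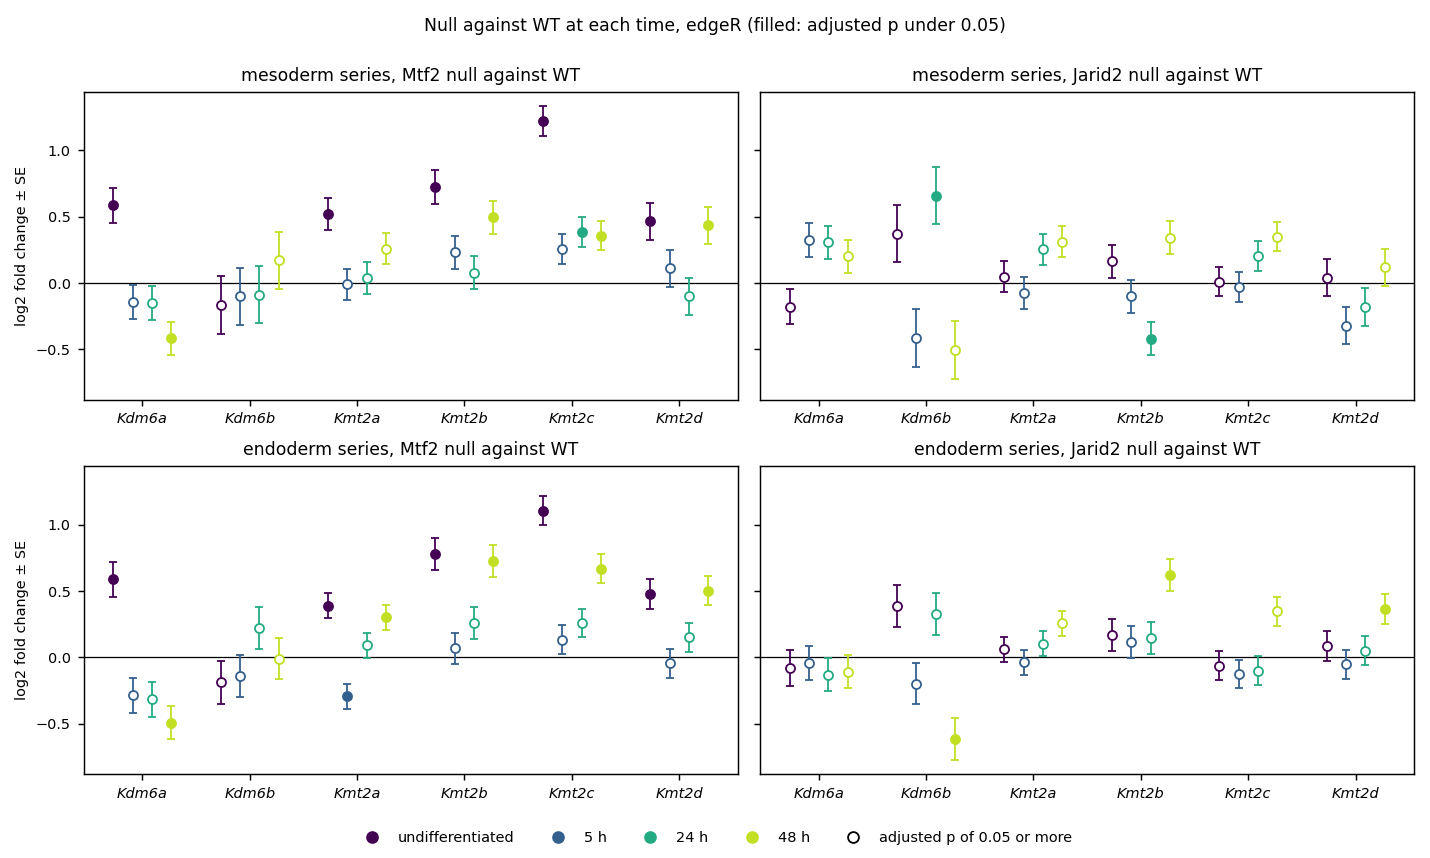
Log2 differences from WT at each time on the y axis, with bars of 1 SE, for the 6 members in the mesoderm and endoderm series, Mtf2 null and Jarid2 null shown apart; the line at 0 marks no difference. Kmt2c starts at 1.22 and 1.11 in undifferentiated Mtf2 null cells, and Kdm6a runs from 0.59 down to −0.42 and −0.49 at 48 h.

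Undifferentiated Jarid2 null cells had none of 6 members past the test in either series, where 6.62% and 9.32% of genes passed. None passed at 5 h, where 0.212% and 0.151% did. With so few genes passing, these counts say little about the members. DESeq2 called none in these 4 comparisons either, and at an unadjusted p under 0.05 edgeR gave 0 and 1 member undifferentiated and 2 and 0 at 5 h. Kdm6b passed in undifferentiated cells of the endoderm series only without WT replicate 1 (log2 0.64, adjusted p = 0.037). In 1 fit over both series Kdm6b was higher in undifferentiated Jarid2 null cells, at 92.3, 77.1, 89.7 and 72.5 CPM against 76.6, 54.4, 71.5 and 52.7 in WT, groups that overlapped. Its log2 difference was 0.36 (SE 0.10, adjusted p = 0.023; 20.4% of genes passed). The call was lost with same-numbered libraries summed (adjusted p = 0.28), without Jarid2 null replicate 1 of the mesoderm (0.32, adjusted p = 0.079) or endoderm series (0.31, adjusted p = 0.085), and without WT replicate 2 of the endoderm series (0.30, adjusted p = 0.083).

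Kdm6b and Kmt2b differed between Jarid2 null and WT at 24 h of the mesoderm series. Kdm6b read 128 and 101 CPM in Jarid2 null against 74.0 and 71 in WT (log2 0.66, SE 0.21, adjusted p = 0.029). Kmt2b was lower, at 115 and 109 against 140 and 159 (log2 −0.42, SE 0.12, adjusted p = 0.02). These 2 of 6 members compare with 23.2% of genes. Neither call held without Jarid2 null replicate 1 (0.48, adjusted p = 0.30 for Kdm6b, and −0.46, adjusted p = 0.11 for Kmt2b) or WT replicate 2 (0.63, adjusted p = 0.15, and −0.32, adjusted p = 0.19). That of Kdm6b was also lost without WT replicate 1 (0.68, adjusted p = 0.12) and that of Kmt2b without Jarid2 null replicate 2 (−0.32, adjusted p = 0.13). Without Jarid2 null replicate 2, Kdm6a (0.46, adjusted p = 0.038) and Kmt2a (0.42, adjusted p = 0.041) passed as well. No member passed at 24 h of the endoderm series, where 0.332% of genes did (0 by DESeq2 and 0 at an unadjusted p under 0.05). The same held at 48 h of the mesoderm series, where 2.21% did (1 by DESeq2, Kmt2c, and 4 at an unadjusted p under 0.05). There Kdm6b stood at −0.50 (SE 0.22, adjusted p = 0.29), and at −0.93 (adjusted p = 0.0087) without WT replicate 1.

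At 48 h of the endoderm series 3 of 6 members passed, beside 7.22% of genes. The names of both Jarid2 null columns in this comparison give another hour than 48, while the labels and the library descriptions give 48 h and the same library numbers. These columns were used as 48 h, and they also enter the endoderm interaction below. Kdm6b was lower in Jarid2 null, at 68.9 and 72.6 CPM against 91.0 and 126 (log2 −0.62, SE 0.16, adjusted p = 0.022). Kmt2b was higher, at 138 and 157 against 105 and 86.8 (log2 0.62, SE 0.12, adjusted p = 0.0042), as was Kmt2d, at 291 and 333 against 255 and 230 (log2 0.37, SE 0.11, adjusted p = 0.049). WT replicate 2 decided each of the 3 calls: without it they stood at −0.37, 0.49 and 0.29. All 3 were also lost without Jarid2 null replicate 2 (−0.66, 0.52 and 0.26, adjusted p = 0.087, 0.056 and 0.30), and Kdm6b and Kmt2d without Jarid2 null replicate 1 (−0.59 and 0.45, adjusted p = 0.10 and 0.055). The effect of Jarid2 loss on Kdm6b changed by −1.003 (SE 0.22, adjusted p = 0.0097) from undifferentiated cells to 48 h, the 1 member called where 5.62% of genes were. It was lost without undifferentiated Jarid2 null replicate 1 (−0.85, adjusted p = 0.068) or WT replicate 2 at 48 h (−0.76, adjusted p = 0.094). Without WT replicate 1 at 48 h Kmt2b passed too (0.58, adjusted p = 0.045), and without undifferentiated WT replicate 2 so did Kmt2c (0.59, adjusted p = 0.014). In the mesoderm series none of the 6 interactions passed by edgeR or DESeq2 (3 at an unadjusted p under 0.05; 1.77% of genes). Kdm6b stood at −0.88 (SE 0.30, adjusted p = 0.16) and, without WT replicate 1 at 48 h, −1.31 (adjusted p = 0.0023).

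The WT cells themselves raised most of these genes on differentiation, each time being compared with the same 2 undifferentiated libraries, which also enter the undifferentiated comparisons above. In the mesoderm series 5 of 6 members were higher at 5 h (36.6% of genes passed), 3 higher and 1 lower at 24 h (38.9%), and 5 higher at 48 h (35.4%). In the endoderm series all 6 were higher at 5 h (30.2%), 4 at 24 h (33%) and 4 at 48 h (34.9%). Kmt2a went from 116 and 108 CPM to 169 and 189 at 5 h of the mesoderm series (log2 0.68, SE 0.12, adjusted p = 0.00022) and stayed above its starting level at every later time in both series, with log2 differences of 0.39 to 0.68. Kmt2b and Kmt2d rose at 5 h and stood nearer to the start at 48 h. Kmt2b was higher by 0.78 and 0.82 at 5 h and by 0.47 and 0.23 at 48 h, of which the last did not pass (adjusted p = 0.15). Kmt2d was higher by 0.56 and 0.75 at 5 h and 0.37 and 0.32 at 48 h. The undifferentiated WT replicate 2 carried part of this: without it the 48 h values of Kmt2d were 0.18 and 0.16 (adjusted p = 0.43 and 0.38) and that of Kmt2b in the mesoderm series was 0.27 (adjusted p = 0.14). Kmt2d also lost its 5 h call in the mesoderm series without that library (0.38, adjusted p = 0.092) or WT 5 h replicate 2 (0.45, adjusted p = 0.063). It lost its 48 h calls without WT 48 h replicate 2 of the mesoderm series (0.24, adjusted p = 0.35) or replicate 1 of the endoderm series (0.24, adjusted p = 0.19). Without undifferentiated replicate 1, Kmt2b at 48 h of the endoderm series passed (0.40, adjusted p = 0.035).

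Kdm6a rose in WT up to 48 h, from 53 and 44.6 CPM to 79.2 and 74.5 in the mesoderm series (log2 0.66, SE 0.13, adjusted p = 0.00042). It went from 55.3 and 46.7 to 89.8 and 98.5 in the endoderm series (log2 0.88, SE 0.13, adjusted p = 1.9e-05). Its 5 h value in the mesoderm series, 0.37 (adjusted p = 0.033), was lost without WT 5 h replicate 1 (0.22, adjusted p = 0.32) or undifferentiated replicate 2 (0.25, adjusted p = 0.29). At 24 h it stood at 0.56 in the endoderm series, lost without WT 24 h replicate 2 (0.44, adjusted p = 0.0504) or undifferentiated replicate 2 (0.45, adjusted p = 0.053). It stood at 0.27 in the mesoderm series (adjusted p = 0.11), gained without undifferentiated replicate 1 (0.41, adjusted p = 0.044). Kdm6b reached 91.0 and 126 CPM at 48 h of the endoderm series from 71.5 and 52.7 (log2 0.80, SE 0.16, adjusted p = 0.00046). In the mesoderm series it stood at 0.14 (SE 0.21, adjusted p = 0.66) with libraries 2.01-fold apart and at 0.56 (adjusted p = 0.018) without WT 48 h replicate 1. Its 5 h value of 0.43 in the endoderm series (adjusted p = 0.045) was lost without either 5 h library or undifferentiated replicate 2 (0.23 to 0.43, adjusted p = 0.14 to 0.45).

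Kmt2c took a course of its own. In the mesoderm series its WT libraries read 130 and 114 CPM undifferentiated, 175 and 170 at 5 h, 89.0 and 95.8 at 24 h and 186 and 181 at 48 h. That is a rise of 0.50, a fall of 0.40 below the start and a rise of 0.59 on the log2 scale (SE 0.11 each, adjusted p = 0.0018, 0.0086 and 0.00034). The fall did not pass without WT 24 h replicate 1 (−0.34, adjusted p = 0.099) or undifferentiated replicate 1 (−0.28, adjusted p = 0.091). In the endoderm series the libraries read 190 and 182 CPM at 5 h, 129 and 125 at 24 h and 126 and 130 at 48 h, the last 2 within the range of the undifferentiated pair (146 and 111). Kmt2c was the 1 member of 6 whose change to 48 h differed between the series, by 0.59 (SE 0.15, adjusted p = 0.013), beside 5.85% of genes. Without undifferentiated WT replicate 2 of the mesoderm series (0.48, adjusted p = 0.10) or replicate 1 of the endoderm series (0.37, adjusted p = 0.19) none was called. Kdm6b differed by −0.67 (SE 0.29, adjusted p = 0.21), and by −1.24 (adjusted p = 0.0025) without WT 48 h replicate 2 of the mesoderm series. Transcripts of at least 8 kb stood higher in WT too, with a median log2 difference of 0.10 at 5 h, 0.36 at 24 h and 0.36 at 48 h in the mesoderm series and 0.24, 0.37 and 0.32 in the endoderm series, where the medians over all genes lay between −0.08 and 0.01. The part of length in the members' rise was not tested.

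Over the 24 group means of both series Kmt2a, Kmt2b and Kmt2d had the highest correlations with each other. Pearson's r of log2 CPM was 0.89 between Kmt2b and Kmt2d, 0.85 between Kmt2a and Kmt2d and 0.77 between Kmt2a and Kmt2b. It was 0.60 between Kdm6a and Kmt2a and 0.52 between Kmt2b and Kmt2c. Kdm6b had values from −0.35 with Kmt2c to 0.19 with Kmt2d. The means share the same libraries and are given as a description. Among 9207 genes ranked in the same way, those most like Kmt2b were Usp19 (r = 0.94), Rtf2 (0.93) and Casc3 (0.93), and those most like Kmt2d were Abr (0.93), Fbrs (0.93) and Mrtfa (0.92). Kmt2a ran with Sec24b and Camsap1 (0.92 each) and Phf3 (0.91). Kmt2c ran with Ctnna1 (0.91) and Ncoa3 (0.90), and Kdm6a with Taok1 and Nipbl (0.88 each) and Ythdc1 (0.87). The genes nearest to Kdm6b were Slc25a33 (0.78), Sc5d (0.72) and Prph (0.71).

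The enzymes' partners and opponents were counted in the same comparisons. A list of 24 genes held the core shared by the MLL and SET1 complexes (Wdr5, Rbbp5, Ash2l, Dpy30), partners of the MLL enzymes, the SET1 branch, H3K4 demethylases, and other H3K27 enzymes. In undifferentiated Mtf2 null cells 5 of 24 were higher and 4 lower in the mesoderm series, and 5 and 7 in the endoderm series, where 39.2% and 40.6% of all genes passed. The largest differences were those of Setd1b, a methyltransferase of the SET1 branch (0.91 and 0.94, adjusted p = 0.0017 and 8.8e-05), and Kdm1b, an H3K4 demethylase (−0.95 and −0.89, adjusted p = 0.00013 and 0.00019). At 5 h the list held 0 higher and 4 lower in the mesoderm and 1 and 9 in the endoderm series, beside 28.7% and 31% of genes. Hcfc2, a partner in MLL complexes, fell by 0.72 and 0.71 (adjusted p = 0.031 and 0.026), and Psip1, which tethers KMT2A to chromatin, by 0.53 and 0.57 (adjusted p = 0.00081 and 0.00053). At 24 h the list held 1 higher and 3 lower in the mesoderm and 0 and 4 in the endoderm series, beside 22.8% and 26.2% of genes. Hcfc2 stood at −1.13 and −0.82 (adjusted p = 0.0011 and 0.0064) and Ash2l at −0.61 and −0.68 (adjusted p = 0.00042 and 4.5e-05). At 48 h the counts were 1 and 5 in the mesoderm series, where 27.9% of genes passed, Psip1 fell by 0.73 (adjusted p = 3.4e-05) and Uty by 0.70 (adjusted p = 0.013). They were 4 and 7 in the endoderm series, where 38% of genes passed and Ncoa6, a subunit of the KMT2C and KMT2D complexes, rose by 1.01 (adjusted p = 3.9e-06). As interactions with time, 3 rose and 7 fell in the mesoderm series, with Ash2l at −1.04 (adjusted p = 0.00018), and 3 rose and 4 fell in the endoderm series, with Ncoa6 at 1.004 (adjusted p = 0.00058). These compare with 18.1% and 22% of genes.

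In Jarid2 null cells the list counted 0 higher and 2 lower undifferentiated in the mesoderm and 0 and 3 in the endoderm series, beside 6.62% and 9.32% of genes. Kdm5b, an H3K4 demethylase, was lower in both (−0.46 and −0.49, adjusted p = 0.016 and 0.0078), Dpy30 in the mesoderm series (−0.55, adjusted p = 0.016) and Setd1b in the endoderm series (−0.58, adjusted p = 0.033). None passed at 5 h, where 0.212% and 0.151% of genes did. At 24 h the list counted 2 and 7 in the mesoderm and none in the endoderm series (23.2% and 0.332% of genes), and at 48 h none in the mesoderm and 0 and 1 in the endoderm series (2.21% and 7.22%). Kdm7a, a demethylase that also acts on H3K27, rose by 1.17 at 24 h of the mesoderm series (adjusted p = 4.8e-05) and stood at −0.69 at 48 h of the endoderm series (adjusted p = 0.01). The Jarid2 null interactions called 2 lower in the mesoderm series (1.77% of genes), Kdm7a at −0.89 (adjusted p = 0.037) and Rbbp5 at −0.56 (adjusted p = 0.044). They called 1 higher and 1 lower in the endoderm series (5.62%), Setd1b at 1.096 (adjusted p = 0.0073) and Kdm7a at −1.005 (adjusted p = 0.01). In WT cells 12 of 24 rose and 3 fell at 5 h of the mesoderm series and 10 and 1 in the endoderm series (36.6% and 30.2% of genes), led by Setd1a (1.11, adjusted p = 8.3e-06) in the former and Setd1b (1.38, adjusted p = 5.9e-06) in the latter. At 24 h the counts were 9 and 4, and 7 and 2 (38.9% and 33% of genes), with Dpy30 at −0.85 and −0.76 (adjusted p = 5.1e-05 and 3e-05). Setd1a stood at 0.79 in the mesoderm series (adjusted p = 0.00015) and Ash2l at 0.81 in the endoderm series (adjusted p = 5.6e-06). At 48 h they were 6 and 3, and 3 and 3 (35.4% and 34.9% of genes), with Kdm5a, an H3K4 demethylase, at 0.77 (adjusted p = 4e-06) and Ezh1 at 0.62 (adjusted p = 0.00034) in the mesoderm series and Kdm7a at 1.00 in the endoderm series (adjusted p = 5e-05). The signed WT change to 48 h was higher in the mesoderm than in the endoderm series for 2 of 24, beside 5.85% of genes. These were Ncoa6, by 0.95 (adjusted p = 0.0029), and Ezh1, a catalytic subunit of PRC2, by 0.53 (adjusted p = 0.049). Such a gap can come from a larger rise in the mesoderm series or from a fall in the endoderm series.

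In EBs the labels need care before the members are read. Mtf2 read 324, 227, 232 and 166 CPM on days 0, 2, 4 and 7 in the line labelled Mtf2 null against 413, 433, 316 and 385 in Pcl1-3 WT, and on day 0 it was lowest, at 129, in the line labelled Jarid2 null. Eed read 109, 205, 107 and 58.8 CPM in the line labelled Eed null against 103, 246, 78.5 and 52.9 in J1, and Jarid2 603, 676, 247 and 223 in the line labelled Jarid2 null against 507, 636, 272 and 322 in JM8. The targeted gene was therefore not absent from any line labelled null, and each line is named by its label only. Reads behind 45 of the 46 columns ranged from 3005707 to 22944105, and the 2 columns of a sample differed for a member by a median ratio of 1.09 and at most 1.65. Each comparison of lines had 4 samples against 4 with day as a block, and the limma test was used.

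Of the 6 members, Kdm6b had the widest fold range between its lowest and highest level in EBs. It was not the only member called over the WT lines, as Kmt2c was called on day 4 (below). On days 0, 2, 4 and 7 it read 80.5, 65.2, 208 and 306 CPM in J1, 80.3, 75.5, 104 and 214 in JM8, and 61.5, 63.9, 44 and 75.7 in Pcl1-3 WT. J1 and JM8 were higher on days 4 and 7 than on days 0 and 2, and Pcl1-3 WT was lower than both on day 4 and on day 7. Over the 3 WT lines it was higher on day 7 than on day 0 by 1.23 (SE 0.37, adjusted p = 0.036), the 1 of 6 members called on a day on which 26% of genes were. Without JM8 the value was 1.11 (adjusted p = 0.28), and without J1 0.91 (adjusted p = 0.099). In the lines labelled null it read 117, 62.4, 98.6 and 198 CPM (Mtf2 null), 109, 108, 171 and 254 (Jarid2 null) and 122, 59.6, 99.1 and 222 (Eed null). It was higher on day 7 than on day 0 in each of the 6 lines. The line labelled Jarid2 null was above JM8 on all 4 days, by 0.49 (SE 0.12, adjusted p = 0.034), the 1 member called beside 15.9% of genes, and no longer without any single day (0.41 to 0.57, adjusted p = 0.071 to 0.15). The line labelled Mtf2 null stood above Pcl1-3 WT by 0.83 (SE 0.23, adjusted p = 0.067; 8.44% of genes and no member passed, with 0 by edgeR on recovered reads and 1 at an unadjusted p under 0.05), and by 1.14 (adjusted p = 0.035) without day 2.

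The other members varied less in EBs, and none separated the line labelled Eed null from J1 (10.2% of genes passed; 0 members by edgeR on recovered reads, 2 at an unadjusted p under 0.05). Nearest to the limit were Kdm6a, at 34.8, 79.8, 66.7 and 70.8 CPM against 72.6, 115, 78.8 and 85.6 in J1 (log2 −0.51, SE 0.15, adjusted p = 0.083) and Kmt2c. The latter read 176, 285, 201 and 207 against 153, 201, 97.0 and 170 (log2 0.52, SE 0.15, adjusted p = 0.079). Both differences had the same sign on all 4 days. In WT lines no member passed on day 2 (12.3% of genes; 0 by edgeR on recovered reads and 0 at an unadjusted p under 0.05). On day 4 Kmt2c was lower than on day 0 by 0.72 (SE 0.22, adjusted p = 0.048; 15.9% of genes). Its levels were 242 and 170 CPM in Pcl1-3 WT, 223 and 109 in JM8 and 153 and 97.0 in J1 on days 0 and 4. Without JM8 that fall did not pass (−0.57, adjusted p = 0.45), nor did it by edgeR on recovered reads. Kmt2b, Kmt2a and Kmt2d lay between 122 and 196, 147 and 262, and 225 and 514 CPM over all 24 samples, and none of them passed in any EB comparison. Of the 24 listed partners, 2 fell in the line labelled Mtf2 null (8.44% of genes passed), Kdm5b (−0.74, adjusted p = 0.042) and Ezh1 (−0.68, adjusted p = 0.046). There were 3 that fell in the line labelled Jarid2 null (15.9%), with Kdm5b at −0.86 (adjusted p = 0.016) and Ash2l at −0.81 (adjusted p = 0.0095). In the line labelled Eed null (10.2%) 2 rose and 1 fell, with Ezh2 at 0.64 (adjusted p = 0.022) and Uty at −1.02 (adjusted p = 0.021). In WT lines 2 rose and 2 fell on day 2 (12.3%), with Setd1b at 1.42 (adjusted p = 0.013) and Dpy30 at 1.11 (adjusted p = 0.022). On day 4 1 rose and 2 fell (15.9%), with Setd1b at 0.74 (adjusted p = 0.032) and Rbbp5 at −0.70 (adjusted p = 0.014). On day 7 2 rose and 2 fell (26%), with Setd1b at 1.27 (adjusted p = 0.0036) and Men1 at 0.79 (adjusted p = 0.018).

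**Figure D3:**
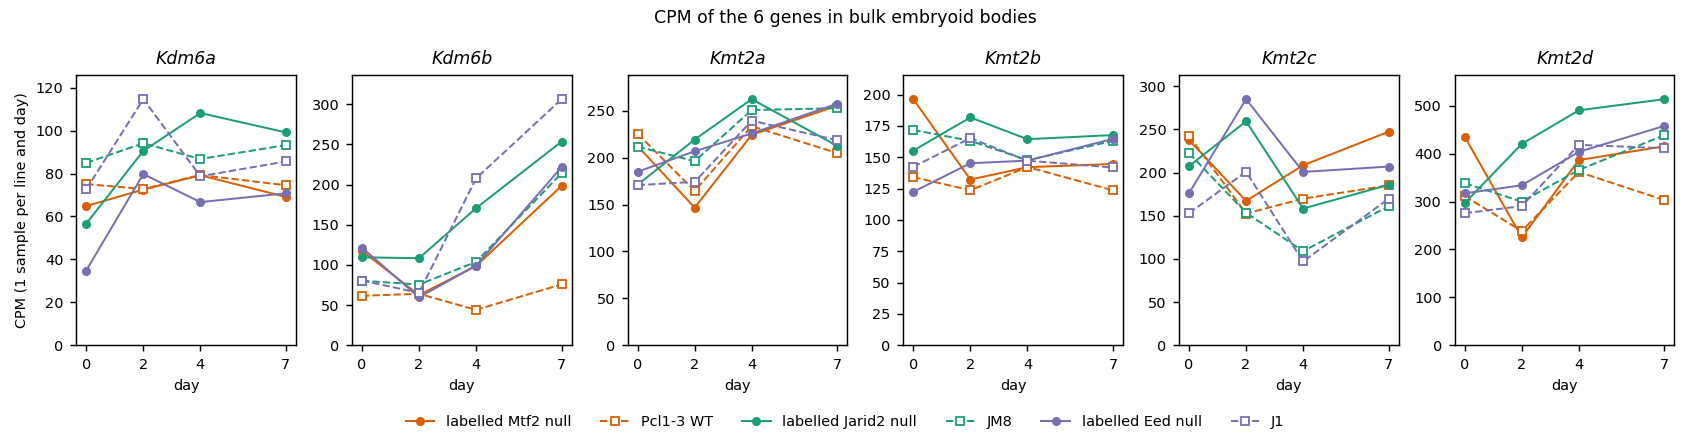
CPM of each member on the y axis against day (0, 2, 4 and 7) for the 6 EB lines, 1 point per sample and so without error bars, lines joining the days of 1 line. On day 7 Kdm6b is at 306 CPM in J1 and at 75.7 in Pcl1-3 WT, while Kmt2b stays between 122 and 196 in every line.

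Single cells gave another view of the same course, from 3′ tags, so levels are not compared between genes. Each library held 202 to 347 cells with a median of 4997 to 10603 UMIs (unique molecular identifiers, 1 per captured transcript), and no cell name was shared between libraries. Mtf2 read 53.7 to 61.1 UMI CPM (UMIs scaled to 1000000 in a library or cluster) in Mtf2 null against 365 to 793 in WT, Jarid2 115 to 185 in Jarid2 null against 215 to 594, and Eed 1.33 to 11.5 in Eed null against 115 to 478. On day 7 Jarid2 read 185 in Jarid2 null and 184 in Mtf2 null, so its level did not tell these libraries apart on that day. With 1 library per genotype and day there is no test. Intervals are exact 95% Poisson intervals and cover counting error only, not a difference in background between mutant and WT cells. The members had 1457 to 4100 UMIs each.

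Kdm6b was highest on day 10 in every genotype. In WT it read 49.2, 36, 129 and 159 UMI CPM on days 0, 4, 7 and 10, in Mtf2 null 31.9, 44.3, 135 and 205, in Jarid2 null 33.6, 53.9, 79.2 and 136, and in Eed null 32.1, 48.3, 83.6 and 207. Day 10 stood 3.23-fold above day 0 in WT (2.61 to 4.01), 6.43-fold in Mtf2 null (5.26 to 7.92), 4.04-fold in Jarid2 null (3.21 to 5.13) and 6.44-fold in Eed null (5.14 to 8.12). All 3 mutants were below WT on day 0, at ratios of 0.648 (0.506 to 0.8289), 0.684 (0.529 to 0.883) and 0.653 (0.505 to 0.842), against the 1 WT library of that day. For Jarid2 null this was opposite in direction to the undifferentiated monolayers, at log2 0.36 over both series. In the bulk samples of day 0, each line labelled null was above its WT line. On day 7 Jarid2 null and Eed null were below WT, at 0.612 (0.498 to 0.749) and 0.646 (0.535 to 0.778), and on day 10 Mtf2 null and Eed null were above, at 1.29 (1.1 to 1.52) and 1.30 (1.09 to 1.56).

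Of the 72 ratios to WT, 4 were past 1.5-fold upwards and 8 downwards. By genotype that made 4 of 24 in Mtf2 null, 2 of 24 in Jarid2 null and 6 of 24 in Eed null, beside 18.7%, 22.7% and 23.2% of the ratios of all genes with at least as many UMIs as the least counted member. With the mean of each cell's own CPM in place of summed UMIs, 11 of the 72 were past 1.5-fold, 7 of them upwards. Kdm6a read 45.1 UMI CPM in Eed null cells on day 0 against 77.3 in WT, a ratio of 0.583 (0.472 to 0.718), and 0.667 (0.486 to 0.910) on day 10. In Mtf2 null cells Kdm6a stood at 1.01 (0.847 to 1.20) on day 0 and 0.728 (0.566 to 0.936) on day 7. Kmt2c did not show on day 0 the Mtf2 null excess of the monolayers: it read 43.4 UMI CPM against 43.8 in WT, a ratio of 0.991 (0.784 to 1.26). On day 0 the extraembryonic endoderm markers summed to 84.1 UMI CPM in Mtf2 null against 100 in WT. The naive pluripotency markers summed to 1075 against 1599. Both sets were higher, not lower, in undifferentiated Mtf2 null monolayers. The part of these markers in the Kmt2c values was not tested. Kmt2c was above WT on day 4 in Jarid2 null, at 1.54 (1.17 to 2.04), and in Eed null, at 1.66 (1.26 to 2.20). The Eed null ratio was 1.07 with each cell thinned to 2500 UMIs.

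Kmt2b read 46.8 UMI CPM in WT on day 0 and 24.3, 31.5 and 27.9 on days 4, 7 and 10. In Mtf2 null it was at 50.01 on day 10, 1.79 times WT (1.23 to 2.66), as Eed null was at 1.69 times (1.11 to 2.58), which thinning to 2500 UMIs a cell took to 1.09. Kmt2d read 68.2 UMI CPM on day 0 in WT, 38.8 on day 4 and 96.6 on day 10. It was lower than WT on day 0 in Mtf2 null, at 0.659 (0.536 to 0.811), and on day 10 in each mutant, at 0.657 (0.514 to 0.839) in Mtf2 null, 0.674 (0.521 to 0.872) in Jarid2 null and 0.642 (0.482 to 0.849) in Eed null, the last at 0.404 after thinning. The day 0 value was opposite in direction to the undifferentiated Mtf2 null monolayers, where Kmt2d was higher by 0.48 on the log2 scale over both series. Kmt2a was past 1.5-fold in none of its 12 ratios, which ran from 0.692 to 1.33, and in WT it read 93.3 UMI CPM on day 0, 135 on day 7 and 131 on day 10.

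**Figure D4:**
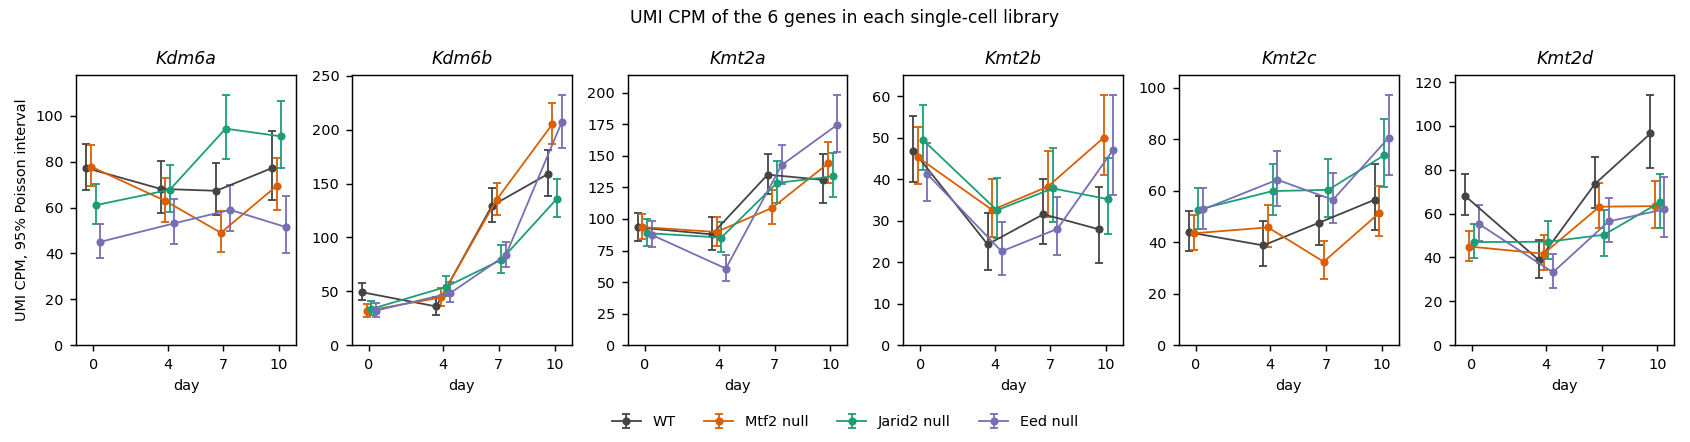
UMI CPM of each member on the y axis against day (0, 4, 7 and 10) for the 4 genotypes, 1 library per point, with bars of the exact 95% Poisson interval. Kdm6b lies between 31.9 and 49.2 on day 0 and between 136 and 207 on day 10.

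By cluster, the 22 groups of cells that the authors cut at resolution 2.5, the members had a level past 1.5-fold from that over all cells in 41 of 132 cases, 19 higher and 22 lower, beside 25.3% over all genes of like count. The clusters were made from these cells' own genes, so this is a description. Kdm6b accounted for 17 of the 41, with a range of 7.80-fold from 29.4 UMI CPM in cluster 6 to 229 (210 to 250) in cluster 4, against 3.11-fold to 3.94-fold for the other members. The 8 clusters in which it was high were clusters 4, 13, 11, 15, 21, 20, 19 and 14, at 229, 209, 177, 160, 153, 148, 137 and 130 UMI CPM. They held markers of differentiated cells: lateral mesoderm and fibroblast genes in cluster 4 (summing to 1376 and 1364 UMI CPM) and cluster 13 (928 and 1593), and neural genes in cluster 15 (1913) and cluster 11 (1052). Primitive streak genes stood out in clusters 14 (1869) and 20 (1316), extraembryonic endoderm and endoderm genes in cluster 21 (3016 and 1029) and lateral mesoderm genes in cluster 19 (1438). Cluster 13 also held neural genes at 1046 and cluster 19 extraembryonic endoderm genes at 908. The clusters in which Kdm6b was lowest, 6, 17 and 0, at 29.4, 30.1 and 31.5, held naive pluripotency markers at 2338, 852 and 1083.

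Kdm6b was at similar levels in the genotypes shown for clusters 4, 14 and 1. In cluster 4 it read 233 UMI CPM in WT (122 cells), 236 in Mtf2 null (159 cells) and 198 in Jarid2 null (40 cells), and in cluster 14, with primitive streak genes, 129 in WT and 130 in Mtf2 null. In cluster 1 it read 89.2 in WT, 80.6 in Mtf2 null and 86.8 in Jarid2 null. Elsewhere it differed more, at 39.96 in Mtf2 null and 69.5 in Jarid2 null of cluster 2. Clusters 6, 8, 3 and 0 came to 100%, 94.3%, 92.8% and 86.5% from 1 genotype, Eed null, Jarid2 null, WT and Mtf2 null in that order, so cluster and library cannot be told apart there.

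Cluster 11, 240 cells with neural markers of which 59.6% were Mtf2 null, was high for 5 of the 6 members. It read 177 UMI CPM of Kdm6b, 207 (183 to 233) of Kmt2a, 110 (92.6 to 130) of Kdm6a, 85.8 (70.5 to 103) of Kmt2c and 67.1 (53.7 to 82.8) of Kmt2b. Its cells had a median of 4226 UMIs, the lowest of the 22 clusters. Within it Kmt2a read 177 in Mtf2 null and 253 in Jarid2 null. Cluster 17, with 80.0% Jarid2 null cells and naive pluripotency markers, paired the lowest Kdm6b but 1 with 101 of Kdm6a and the highest Kmt2c, at 89.4 (71.5 to 110). Cluster 21, the extraembryonic endoderm-marked one, had the highest Kmt2d, at 93.3 (66.4 to 128), followed by cluster 4 at 83.0 and cluster 19 at 82.5. The lowest Kmt2a and Kmt2d were both in cluster 9, at 54.8 and 26.3, an Eed null cluster of which 84.1% came from the day 4 library.

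**Figure D5:**
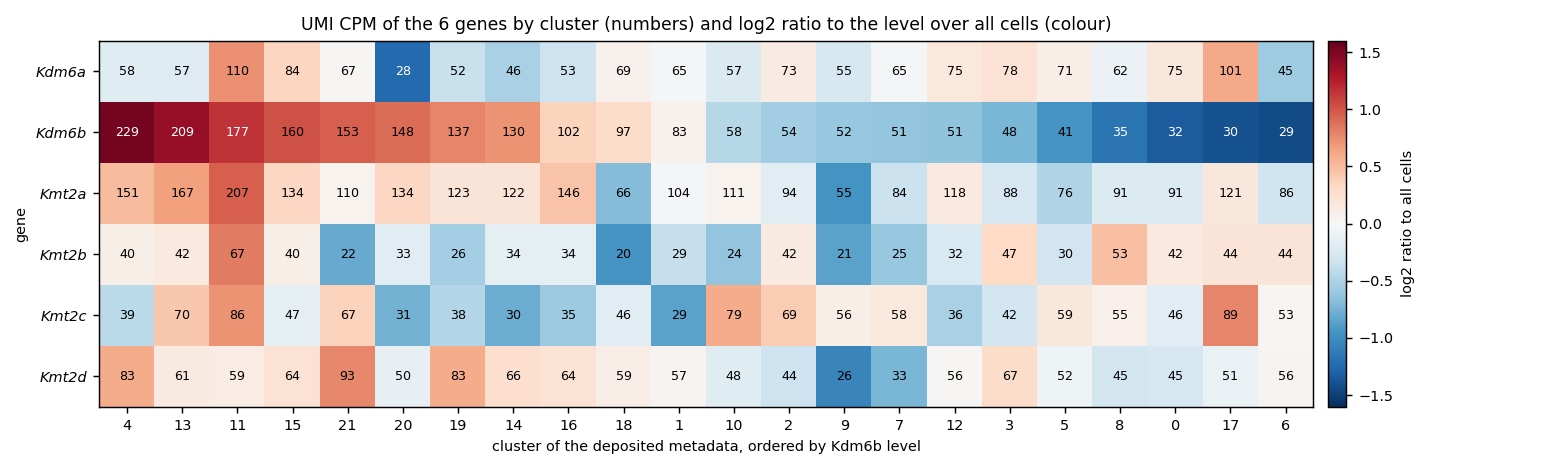
Each row is 1 member and each column 1 of the 22 clusters, ordered by Kdm6b level. Colour gives the log2 ratio of UMI CPM in the cluster to that over all cells, and numbers give UMI CPM. The Kdm6b row spans the widest range, from 29.4 to 229 UMI CPM, and cluster 11 is above the level over all cells in every row.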

How the data were processed

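The authors deposited estimated counts per gene for the 48 directed libraries, values divided by size factors for the EBs (a normalized signal, 46 columns for 24 samples) and UMI counts for 4949 single cells with their clusters. Per the submitters' processing notes the tools included CASAVA, Bowtie2, HTSeq, Salmon and DESeq2, on GRCm38. Per the study's methods, Bowtie2 mapped all reads, Salmon gave the bulk counts and HTSeq the single-cell ones. The column names of the Jarid2 null 48 h endoderm libraries give another hour, and the labels were followed.

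Estimated counts were rounded, filtered with edgeR's filterByExpr (edgeR 4.0.16, R 4.3.3), scaled by TMM and tested by the quasi-likelihood test in 1 fit per series of 24 libraries, with Benjamini-Hochberg adjustment over all genes tested. EB columns were averaged per sample and tested with limma 3.58.1 on log2 CPM (prior count 2, at least 1 CPM in 4 samples); whole reads, within 0.02, were recovered behind 45 columns. UMIs were summed per library or deposited cluster with Python 3.11.15, without doublet calling. The tests were tried on simulated data. Alternatives were DESeq2 1.42.0, other scalings, filters and blocks, and leaving out each library; summing same-numbered libraries was added after seeing the data.

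The members and lists were chosen with earlier results of these data known. Of 24 partner genes, those past adjusted p 0.001 with a log2 difference over 1 in size are named, or else the 2 called genes with the largest difference. The 3 genes most like each member are named, except 1 that is not reported here.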

Additional observations from a re-analysis of the deposited data

Results flagged for a closer look

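The 6 results here are differences of a difference, each tested as an interaction across all genes. The effect of Mtf2 loss changed between undifferentiated cells and 48 h by −1.003 for Kdm6a and −0.87 for Kmt2c in the mesoderm series, and by −1.08 and −0.44 in the endoderm series. Kdm6a thereby passed from higher than WT to lower than WT, and Kmt2c stayed higher by less. The median change over transcripts of at least 8 kb, Kmt2c among them, was −0.26 and −0.15. The part of length was not tested. The effect of Jarid2 loss on Kdm6b changed by −1.003 in the endoderm series. The change of Kmt2c from undifferentiated cells to 48 h in WT differed by 0.59 between the mesoderm and endoderm series. Of 18 groups of 4 EB samples, no sample stood apart from the others of its group, where chance would set apart about 1 in 20 groups. With 1 sample per line and day the 4 were not replicates, so this says little about the quality of any sample.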

How the results depend on the processing

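Of the counts of called members under all alternatives, 200 stayed within 1.5 times the reported count and 41 did not. No member value that passed its test changed sign under any alternative run, although values that did not pass did in places (Kdm6b in undifferentiated Mtf2 null cells of the mesoderm series ran from −0.40 to 0.11). Without the filter on low counts the Jarid2 null calls of the mesoderm series went from 2 to 4, their interaction from 0 to 1 and the lineage difference from 1 to 2; without it the EB calls fell to 0 both in WT lines (from 2) and in the line labelled Jarid2 null (from 1). Fitting only the libraries compared left 1 of 3 Jarid2 null calls of the endoderm series, and summing same-numbered undifferentiated libraries left 0 of 1. In EBs, dropping the day block left 0 of 1 call for the line labelled Jarid2 null, dropping the line block left 0 of 2 in WT lines, edgeR on recovered reads left 1 of 2, and scaling to the total gave 1 for the line labelled Eed null (from 0). The cause of these changes was not tested.

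With each library left out in turn, the calls in Mtf2 null cells ran from 7 to 10 in the mesoderm series, 9 to 12 in the endoderm series and 5 to 6 in undifferentiated cells of both. Those in Jarid2 null cells ran from 0 to 3, 0 to 4 and 0 to 1. The WT course gave 10 to 15 and 11 to 15 calls. Interactions gave 2 to 3 and 1 to 2 for Mtf2 null and 0 to 1 and 0 to 2 for Jarid2 null, and the lineage difference 0 to 2. In EBs, leaving out a day or line gave 0 to 1 call for the line labelled Mtf2 null, 0 to 0 for Jarid2 null, 0 to 0 for Eed null and 0 to 2 in WT lines.

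With a replicate block, counts stayed within 1.5 times: 10 Mtf2 null, 2 Jarid2 null and 13 WT calls in the mesoderm series, and 11, 4 and 14 in the endoderm series. Kmt2d at 48 h of the mesoderm WT course was lost (0.36, adjusted p = 0.051) and Kmt2c at 48 h in Jarid2 null of the endoderm series was gained (0.35, adjusted p = 0.038). The deviations of same-numbered libraries correlated at −0.43 to 0.54 within a series and −0.47 to 0.63 over the undifferentiated libraries of both series. Not every pair was over 0.1, so the numbers were not taken to pair the samples.

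Relative to TMM, the size factors of DESeq2 took the share of higher calls at 5 h in Jarid2 null cells of the mesoderm series from 59% to 44%. Of single-cell ratios to WT, 17 moved beyond their counting interval, most of them after thinning. Single-cell ratios rest on 1 library per genotype and day, and the directed tests on pairs.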
